A study of Mus musculus with 6 samples.

Results

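SOX family transcription factor genes, 10 in number, were followed in mouse bone marrow stroma: Sox5, Sox6 and Sox9, known from cartilage, Sox7, Sox17 and Sox18, known from vessels, and Sox4, Sox8, Sox11 and Sox13. They were taken by name, with earlier results of these data known, from the 19938 genes measured. Each was read from the probe set that names that gene alone, of which each of the 10 had exactly 1. The cells were negative for CD45, a leukocyte protein, and for Ter119, a mark of the red cell lineage, and positive for the ectoenzyme CD73. Flow sorting split them by CD105, the TGF-beta co-receptor endoglin, into a CD73+CD105- group (n = 3) and a CD73+CD105+ group (n = 3), and each sample was read on 1 array. By its title, the series is about repair of the marrow stroma by engrafted stromal cells in stem cell transplantation. Neither strain, age nor any treatment is given in the labels, which call the 3 samples of a group biological replicates without tying them to animals. The p-values therefore reflect the spread among these arrays, which may be partly technical.

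SOX proteins bind DNA through a shared HMG box, which sits in the minor groove and bends the helix. In cartilage SOX9 switches on collagen and proteoglycan genes, and SOX5 and SOX6, which lack an activation domain of their own, bind as dimers beside it on the same enhancers. In endothelium SOX7, SOX17 and SOX18 act in part redundantly in vessel formation, artery identity and the budding of lymphatics. SOX8 is a close relative of SOX9, SOX13 one of SOX5 and SOX6, and SOX4 and SOX11 form a group that acts in many progenitor cells.

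Start regions of Sox5, Sox6 and Sox8 are shown first, because these are the cartilage genes and the SOX9 relative with a RefSeq window, and SOX proteins are known to regulate SOX genes. RefSeq promoter sequences (build GRCm38.p6) were matched by symbol for 6 of the 10 genes, Sox4, Sox5, Sox6, Sox8, Sox11 and Sox13, with 11 windows of 250 bases before a start, 6 of them for Sox6. The windows were searched on both strands for the SOX core motifs ACAAT and ACAAAG and for the GC box GGGCGG, and none of these contains another. Capitals mark the SOX core motifs, and each sequence runs 5′ to 3′ on the gene's strand, ending at the base before the start. The Sox5 window is chr6:143947107-143947356, the Sox6 windows at starts 1 and 3 counted from the 5′ end are chr7:116038745-116038994 and chr7:115995087-115995336, and the Sox8 window is chr17:25570687-25570936, all on the minus strand.
Sox5: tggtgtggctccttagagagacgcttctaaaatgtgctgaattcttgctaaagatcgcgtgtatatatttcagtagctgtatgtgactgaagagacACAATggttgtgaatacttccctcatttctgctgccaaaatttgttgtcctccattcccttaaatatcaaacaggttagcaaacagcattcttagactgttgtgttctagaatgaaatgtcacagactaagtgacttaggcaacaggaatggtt
Sox6 start 1: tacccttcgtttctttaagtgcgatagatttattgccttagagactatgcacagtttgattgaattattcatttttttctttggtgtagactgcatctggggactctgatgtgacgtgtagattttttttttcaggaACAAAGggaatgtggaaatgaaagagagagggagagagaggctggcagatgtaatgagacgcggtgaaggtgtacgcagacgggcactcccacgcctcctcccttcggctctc
Sox6 start 3: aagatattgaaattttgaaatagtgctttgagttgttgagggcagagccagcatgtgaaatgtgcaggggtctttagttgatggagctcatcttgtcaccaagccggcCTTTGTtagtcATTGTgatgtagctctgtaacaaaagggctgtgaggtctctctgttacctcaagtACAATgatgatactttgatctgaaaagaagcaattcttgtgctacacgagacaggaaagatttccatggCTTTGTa
Sox8: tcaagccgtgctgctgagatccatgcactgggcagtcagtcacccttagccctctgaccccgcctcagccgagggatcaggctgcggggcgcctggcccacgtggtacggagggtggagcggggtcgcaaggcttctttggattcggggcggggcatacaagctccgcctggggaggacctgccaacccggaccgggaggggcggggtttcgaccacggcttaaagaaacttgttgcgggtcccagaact

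A SOX core motif stood in all 6 Sox6 windows and in the Sox5 window, and in none of the windows of Sox4, Sox8, Sox11 and Sox13. Among all 32851 RefSeq windows, 38.8% held at least 1, with ACAAT in 27.7% and ACAAAG in 16.5%. In the Sox5 window the motif began at position -154 from the start. The windows of Sox6 start 3 and of Sox6 start 5, which is not printed, each held 2 of each motif. That of Sox6 start 6, also not printed, held 3 of ACAAT and 0 of ACAAAG. The Sox6 windows had 34.0% to 60.8% G and C and the Sox5 window 39.6%, and the windows with no SOX core motif had 50.8% for Sox4, 58.0% for Sox11, 65.6% for Sox8 and 72.4% for Sox13. GC boxes stood in 3 of the 11 windows, those of Sox8, Sox11 and Sox6 start 2, and in 32.7% of all windows. The arrays do not show which start was used, and a match is a stretch of letters, not evidence of binding.

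Expression is given on the log2 scale for each gene's probe set, and differences are CD73+CD105+ minus CD73+CD105-. A probe set's level cannot be set against that of another probe set, so no order of levels between genes is given, and where levels are summed over a list the brightest probe sets weigh most. The array medians lay between 6.27 and 6.35. Precision is limited by having 3 arrays a group: over all genes the standard error of a difference had a median of 0.09, and the difference itself a median of -0.02. As a guide to dim signals, 95% of the 1190 genes for olfactory or vomeronasal receptors, which marrow cells are not thought to use, had means below 6.01, called the receptor percentile here. Eng, which encodes CD105, stood at 6.302 ± 0.21 (SD, n = 3) in CD73+CD105- and 8.06 ± 0.25 (SD, n = 3) in CD73+CD105+ cells, in the order of the sort gate. The CD45 gene Ptprc, at 4.71 and 4.70, lay under the receptor percentile in both. One property of the arrays touches every test. Averaged over both groups, the replicate 1 arrays nearly equalled the average of the remaining 4 arrays gene by gene (SD over genes 0.0423), and the other 8 cross-group pairs of arrays gave SDs of 0.12 to 0.17. No label describes this. Whether the deposited values had been adjusted for a batch was not tested, and if they had, p-values without a term for it are too small. Calls are therefore set beside those from a fit with a term that separates the replicate 1 arrays.

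Among the 10 SOX genes the cartilage genes stood lower and the vessel genes higher in CD73+CD105+ cells, by less than 2-fold as measured. By limma with Benjamini-Hochberg adjustment over all genes, Sox6 and Sox8 fell and Sox7 rose, and the other 7 did not pass. That is 3 of 10, where 1.82% of all genes passed, 1.35% higher and 0.466% lower. At an unadjusted p under 0.05 there were 8 of the 10, against 17.7% of all genes, and the arrays of the groups did not overlap in 8 of the 10, against 23.7%. With the term for replicate 1, limma passed 0 of the 10 and 0.507% of all genes, with 7 of the 10 at an unadjusted p under 0.05.

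**Figure D1:**
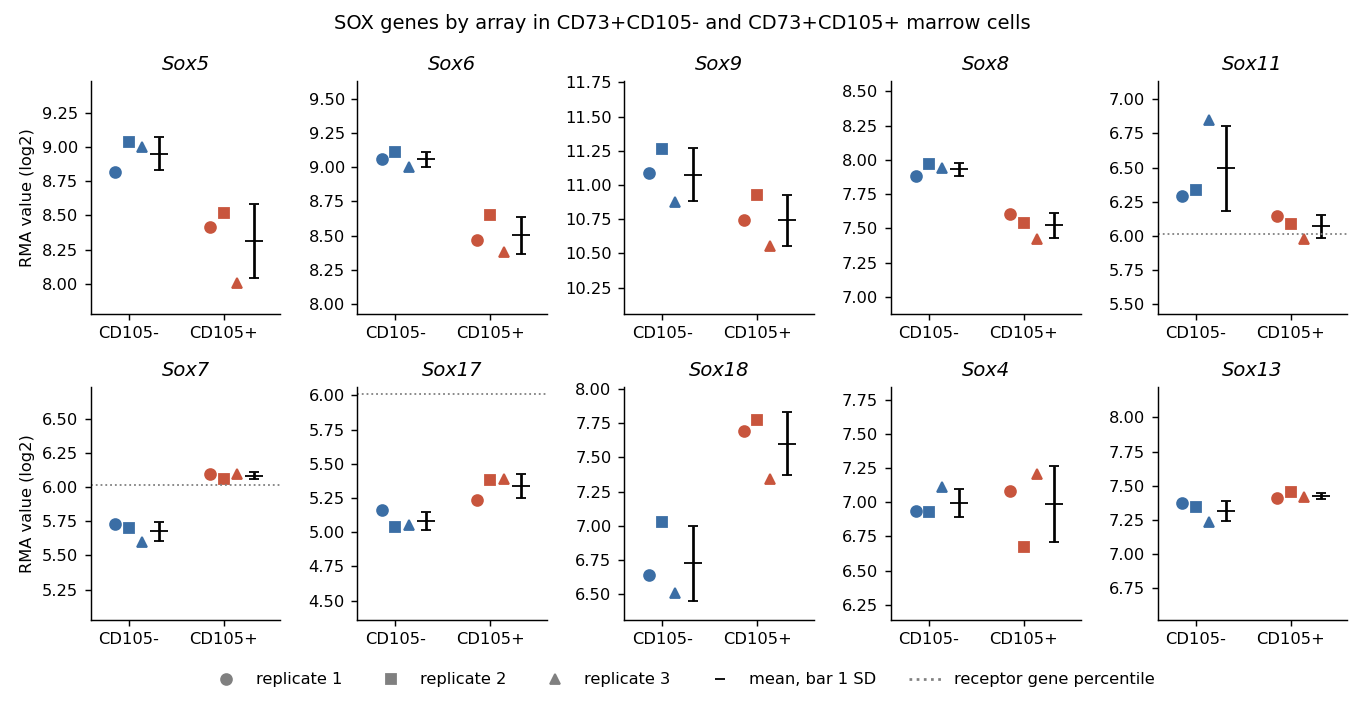
Each panel plots the log2 RMA value of 1 SOX gene on the 6 arrays, with a marker shape per replicate, blue for CD73+CD105- and red for CD73+CD105+ cells, and the mean with a bar of 1 SD beside the points. All panels span the same height on the log2 scale, and the dotted line is the receptor gene percentile of 6.01; Sox5, Sox6, Sox8 and Sox11 separate downwards, Sox7, Sox13, Sox17 and Sox18 upwards, and Sox4 and Sox9 overlap.

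The SOX5 and SOX6 genes differed most among the cartilage genes. Sox6 was at 9.06, 9.11 and 8.9999 in CD73+CD105- replicates 1, 2 and 3 and at 8.47, 8.65 and 8.38 in CD73+CD105+ replicates 1, 2 and 3. The groups did not overlap, with a gap of 0.35 between the nearest arrays. Sox6 fell by 0.56 (SE 0.09, limma adjusted p = 0.0304), which is 1.47-fold, and 0.802% of all genes had a difference at or below it. Its difference was -0.59 in replicate 1 and -0.54 in replicates 2 and 3, so its size was alike in these arrays, while its adjusted p was 0.1 with the term for replicate 1. When 1 array was left out, Sox6 passed only without CD73+CD105+ replicate 2 (adjusted p = 0.0247), and the highest adjusted p was 0.13, without CD73+CD105+ replicate 1.

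Sox5, the dimer partner of SOX6, was at 8.82, 9.04 and 8.999 in CD73+CD105- cells and at 8.42, 8.51 and 8.0045 in CD73+CD105+ cells. Every CD73+CD105+ array was below every CD73+CD105- array, and CD73+CD105+ replicate 3 was the lowest of the 6. The difference of Sox5 was -0.64 (SE 0.14, 95% interval -0.97 to -0.31), larger than that of Sox6 but with a wider spread, and it did not pass (limma adjusted p = 0.0756, or 0.18 with the term for replicate 1). It was -0.40 in replicate 1 and -0.76 in replicates 2 and 3. Without CD73+CD105+ replicate 3 it was -0.49.

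Sox9, the factor on which the chondrocyte fate depends, was at 11.09, 11.26 and 10.88 in CD73+CD105- cells and at 10.75, 10.93 and 10.56 in CD73+CD105+ cells. Here the groups overlapped, since CD73+CD105+ replicate 2 was above CD73+CD105- replicate 3. The Sox9 difference of -0.33 (SE 0.13, 95% interval -0.64 to -0.03) did not pass (limma adjusted p = 0.25, or 0.423 with the term for replicate 1). With the replicate number as a block the adjusted p was 0.185. Between same-numbered arrays the Sox9 difference was -0.34, -0.33 and -0.32 in replicates 1, 2 and 3, so the overlap arose between arrays of different numbers. No label says that the numbers pair the arrays. Sox8, which resembles SOX9 in sequence and can share its functions, had a smaller spread within each group. It was at 7.88, 7.97 and 7.94 in CD73+CD105- cells and at 7.60, 7.54 and 7.42 in CD73+CD105+ cells, with no overlap. Sox8 fell by 0.41 (SE 0.08, limma adjusted p = 0.0488), which is 1.33-fold. That call lay at the threshold: the adjusted p was 0.0744 with the arrays centred on their medians, 0.0706 with an intensity trend and robust prior, 0.0519 with every probe set tested, 0.156 with the term for replicate 1, and at least 0.0884 with any 1 array left out.

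**Figure D2:**
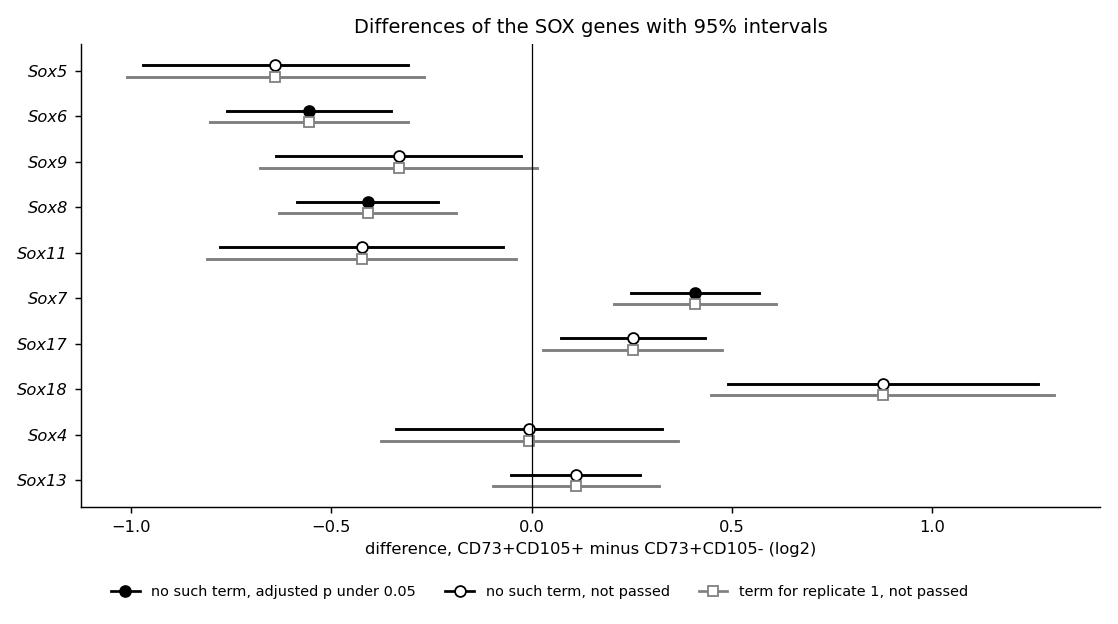
Points show the difference in log2 value, CD73+CD105+ minus CD73+CD105-, of each SOX gene, with a bar for the 95% interval of the limma fit without (black circles) and with (grey squares) a term for replicate 1. Filled points passed an adjusted p under 0.05, which holds for Sox6, Sox7 and Sox8 without the term and for 0 genes with it; for Sox9 the interval with the term includes 0.

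The vessel genes all stood higher in CD73+CD105+ cells. Sox18, which is known for lymphatic and vessel development, was at 6.64, 7.03 and 6.51 in CD73+CD105- cells and at 7.69, 7.77 and 7.34 in CD73+CD105+ cells. All CD73+CD105+ arrays were above all CD73+CD105- arrays, by a gap of 0.31. The Sox18 difference of 0.88 (SE 0.16, 95% interval 0.49 to 1.26), or 1.84-fold, was the largest in size of the 10, and 0.808% of all genes had a difference at or above it. It missed the threshold in limma (adjusted p = 0.0514, or 0.125 with the term for replicate 1). It passed when genes dimmer than the receptor percentile were left out (0.0432), with an intensity trend and robust prior (0.0481) and with array weights (0.0159). It also passed with the replicate number as a block (0.0234) and without CD73+CD105- replicate 2 (0.0448). The difference was 1.05 in replicate 1 and 0.79 in replicates 2 and 3.

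Sox7 was at 5.73, 5.70 and 5.60 in CD73+CD105- cells and at 6.10, 6.05 and 6.10 in CD73+CD105+ cells. The 3 CD73+CD105- arrays were below the receptor percentile of 6.01 and the 3 CD73+CD105+ arrays just above it. Sox7 rose by 0.41 (SE 0.07, limma adjusted p = 0.0355), a value measured from a dim CD73+CD105- level and so no exact fold, with 0.37 in replicate 1 and 0.43 in replicates 2 and 3. The adjusted p was 0.126 with the term for replicate 1 and 0.0691 to 0.168 with 1 array left out, so the call was lost in each of those fits. Sox17, a gene of arterial endothelium, stood at 5.16, 5.04 and 5.05 against 5.23, 5.39 and 5.39, below the receptor percentile on all 6 arrays. The groups were separated by only 0.07, and the difference of 0.25 (SE 0.08, 95% interval 0.07 to 0.43) did not pass (limma adjusted p = 0.155, or 0.348 with the term for replicate 1).

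Sox4, Sox11 and Sox13 did not pass. Sox11 was at 6.29, 6.34 and 6.85 in CD73+CD105- cells and at 6.14, 6.08 and 5.98 in CD73+CD105+ cells. Its groups did not overlap, but CD73+CD105- replicate 3 stood above the rest, and the difference of -0.42 (SE 0.15, limma adjusted p = 0.209, or 0.356 with the term for replicate 1) was -0.25 without that array. Sox13, which belongs to the SOX5 and SOX6 group, lay between 7.23 and 7.37 in CD73+CD105- and between 7.41 and 7.45 in CD73+CD105+ cells. Its difference of 0.11 (95% interval -0.05 to 0.27, limma adjusted p = 0.455, or 0.671 with the term for replicate 1) had the opposite sign to those of Sox5 and Sox6. Sox4 lay between 6.93 and 7.11 in CD73+CD105- and between 6.67 and 7.20 in CD73+CD105+ cells. It had the smallest difference in size of the 10, -0.01 (95% interval -0.34 to 0.33, limma adjusted p = 0.99, or 0.994 with the term for replicate 1), and its sign changed between fits.

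To set cartilage against vessel genes on 1 scale, each gene's value was taken minus its own mean over the 6 arrays and averaged over the 3 genes of each set. The cartilage average was 0.22, 0.36 and 0.18 in CD73+CD105- replicates 1, 2 and 3 and -0.23, -0.08 and -0.46 in CD73+CD105+ replicates 1, 2 and 3. The vessel average was -0.24, -0.16 and -0.36 in CD73+CD105- and 0.26, 0.32 and 0.19 in CD73+CD105+ replicates. Neither average overlapped between the groups, and the vessel minus cartilage value lay between -0.55 and -0.46 in CD73+CD105- and between 0.40 and 0.65 in CD73+CD105+ cells. The mean difference was -0.51 for the cartilage genes and 0.51 for the vessel genes. In replicate 1 alone these were -0.45 and 0.50, and in replicates 2 and 3 they were -0.54 and 0.52. Inside each group the array with the highest cartilage average, replicate 2, also had the highest vessel average, and replicate 3 had the lowest of both. These are descriptions over genes chosen by name with earlier results of these data known, and no test was made on the averages.

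**Figure D3:**
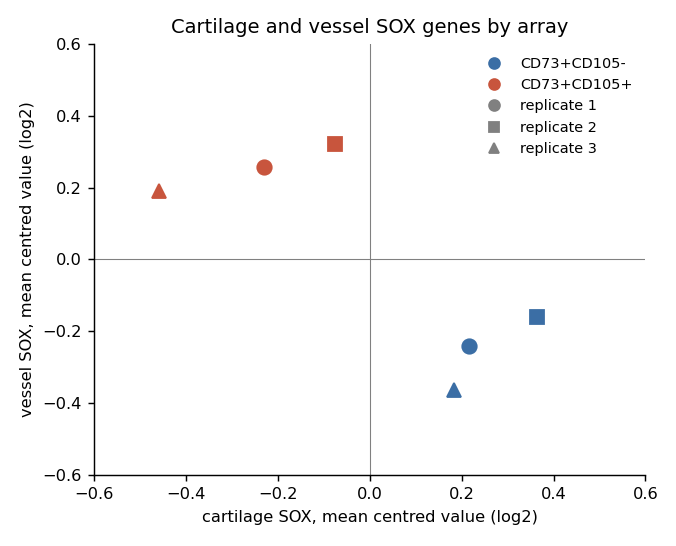
Each point is 1 array, placed by the mean centred log2 value of Sox5, Sox6 and Sox9 (horizontal axis) and of Sox7, Sox17 and Sox18 (vertical axis), with colour for the group and shape for the replicate. The CD73+CD105+ arrays lie at negative cartilage and positive vessel values, the CD73+CD105- arrays the other way round, and within a group both values are lowest in replicate 3.

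Markers of cartilage and endothelial cells are given beside these factors. Of all genes 1.35% passed as higher and 0.466% as lower, and 0.507% passed with the term for replicate 1. At an unadjusted p under 0.05 in limma there were 17.7% of all genes. All 10 chondrocyte markers, among them Matn1 (-0.61) and Matn3 (-0.42), had a difference below 0, with a median of -0.24, and 0 passed in limma (5 at an unadjusted p under 0.05). None of the 10 lay below the receptor percentile, and their summed linear level ran from 45622 to 51137 in CD73+CD105- and from 37006 to 44786 in CD73+CD105+ arrays. All 10 endothelial markers rose, with a median of 2.11, led by the sialomucin gene Emcn (4.61), Pecam1 (3.63), Cdh5 (3.34) and the phosphatase gene Ptprb (2.94), and their summed level was 574 to 698 against 3167 to 4213. The CD73+CD105- arrays of Emcn and Ptprb, 2 of the 3 for Pecam1 and 1 for Cdh5 lay below the receptor percentile, so these sizes may be understated and their order is not firm. With the term for replicate 1, 7 of the 10 still passed. In these bulk samples fewer cells of a type and less RNA per cell cannot be told apart, and the part of the cell mixture in the SOX differences was not tested. Of 9 markers of reticular stroma 5 rose, with a median of 0.69, among them Adipoq (1.32), Cxcl12 (1.31), Kitl (1.27) and Lepr (0.93), and 1 passed with the term for replicate 1. Their summed level was 5110 to 5547 against 7878 to 8233. The osteoblast, Schwann and melanocyte, leukocyte and erythroid lists held 0 genes past the threshold of 6, 6, 7 and 3 measured. At an unadjusted p under 0.05 in limma there were 2, 2, 2 and 0, against 17.7% of all genes. The list medians were 0.03, -0.10, 0.01 and -0.03. The 2 largest differences in these lists were Ifitm5 (0.39) and Sp7 (-0.35) for osteoblasts, S100b (-0.48) and Foxd3 (-0.23) for Schwann cells and melanocytes, Lyz2 (0.38) and Cd79a (0.21) for leukocytes, and Epor (-0.11) and Slc4a1 (-0.03) for erythroid cells. Their summed levels were 11087 to 11748 against 11371 to 13252, 1506 to 1852 against 1201 to 1375, 262 to 278 against 280 to 296, and 217 to 242 against 206 to 230, in the same order. The sum of the Schwann and melanocyte list mostly follows the S100b probe set, at 10.26 and 9.78, and not the list as a whole. Sox10 and Mbp of that list differed by only -0.06 and -0.08, and 1 of the 6 measured had a difference above 0. Of the 7 leukocyte markers, 5 lay below the receptor percentile on all arrays.

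Genes known as targets of the cartilage SOX factors had small differences, nearly all below 0. Col2a1, Acan, Col9a1, Matn1, Matn3, Hapln1, Cnmd and Snorc are also among the chondrocyte markers above, so the counts are not independent. Of the 17 target genes 0 passed in limma and 10 had an unadjusted p under 0.05, against 17.7% of all genes. A difference below 0 was found in 16, where 55.6% of all genes had one. The median difference of the list was -0.29, against -0.02 for all genes, and it was -0.18 in replicate 1 and -0.34 in replicates 2 and 3. The largest differences were those of Matn1, which encodes a matrilin of the cartilage matrix, at -0.61 (SE 0.15, adjusted p = 0.0963), and of Col9a2, a chain of the collagen on the surface of cartilage fibrils, at -0.49 (SE 0.19, adjusted p = 0.236). With the term for replicate 1 their adjusted p-values were 0.214 and 0.394. Among 14 SOX9 partners and cartilage regulators with a value, 0 passed (3 at an unadjusted p under 0.05 in limma), and the median was -0.05. Runx3, a factor of chondrocyte maturation, differed by -0.76 (SE 0.15, adjusted p = 0.0532, or 0.129 with the term for replicate 1) and did not pass. Foxa3, a forkhead factor of maturing chondrocytes, differed by -0.62 (SE 0.15, adjusted p = 0.0913, or 0.206 with that term). Arid5b, a coactivator that binds SOX9, was named after its values were seen: it differed by 0.56, against the direction of Sox9, and did not pass (adjusted p = 0.106, or 0.23 with that term). Runx2 and Pthlh had no value here.

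**Figure D4:**
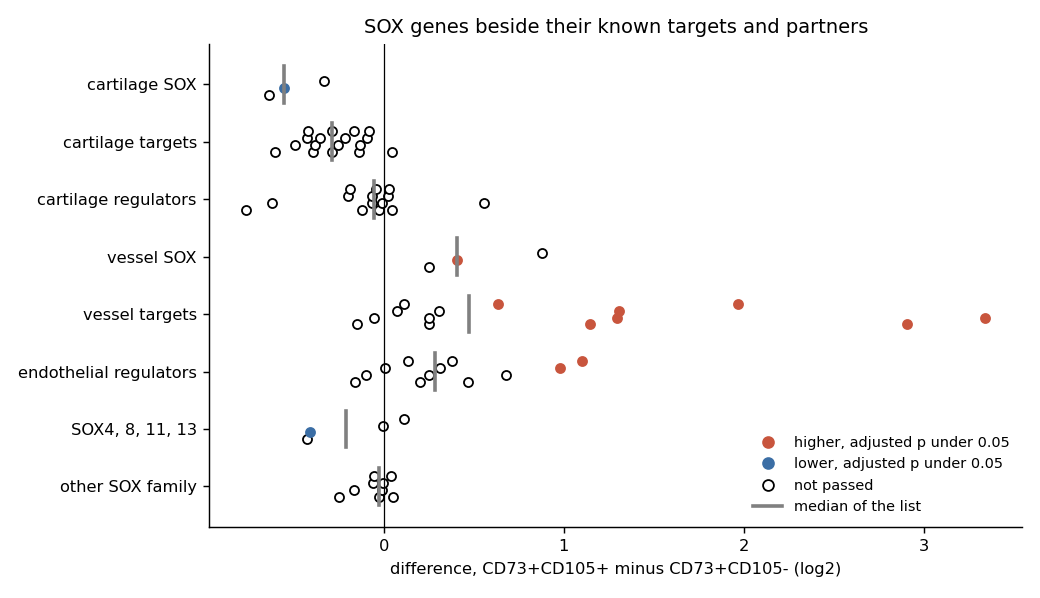
Each point is 1 gene, placed by its difference in log2 value, CD73+CD105+ minus CD73+CD105-, in the SOX sets and in the lists of known targets, partners and other family genes. Red and blue points passed an adjusted p under 0.05 as higher or lower, open points did not, and the grey bar is the median of the list, -0.29 for cartilage targets and 0.47 for vessel targets.

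Some genes known as targets of SOX7, SOX17 and SOX18 had larger differences than the factors: 6 of 14 exceeded Sox18, and the other 8 lay below it. Cdh5, Kdr, Tek and Egfl7 are also among the endothelial markers above, so the counts are not independent. Of the 14 genes 7 rose and 0 fell past the threshold, against 1.35% and 0.466% of all genes, and the median was 0.47. With the term for replicate 1, 5 passed, against 0.507% of all genes. Cdh5, the cadherin of endothelial junctions, rose by 3.34 (SE 0.16), the angiopoietin receptor gene Tek by 2.91 (SE 0.17), and the VEGF receptor genes Flt1 by 1.97 (SE 0.10) and Kdr by 1.31 (SE 0.17), with adjusted p-values of at most 0.0182. The CD73+CD105- arrays of Tek, Flt1 and Kdr, and 1 of the 3 for Cdh5, lay below the receptor percentile, so the size of these differences is not exact and may be understated. Kdr did not pass with the term for replicate 1 (0.052), and neither did Robo4 (0.0786), a receptor of endothelial cells. Not all targets moved this way: Dll4 and Prox1 stayed below the receptor percentile on all 6 arrays, at differences of 0.07 and 0.11, and Efnb2 was at -0.15, all 3 named after their values were seen and none past the threshold. Of 12 SOX18 partners and endothelial regulators 2 rose, Nr2f2, a nuclear receptor of venous identity, by 1.10 (SE 0.11, adjusted p = 0.00696) and Lmo2, an adaptor of endothelial and blood transcription complexes, by 0.98 (SE 0.17, adjusted p = 0.0402). With the term for replicate 1 only Nr2f2 passed of the 12 (adjusted p = 0.0226), and Lmo2 did not (0.0963). The median of that list was 0.28, and 1 of the 12 passed with the arrays centred on their medians.

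The other SOX family genes showed little difference between the groups. Of 9 measured, 0 passed in limma and 0 had an unadjusted p under 0.05, against 17.7% of all genes. Sox2, known from pluripotent and neural cells, had the largest difference, -0.25 (95% interval -0.51 to 0.01), and lay below the receptor percentile on all 6 arrays. Sox12, which belongs to the SOX4 and SOX11 group, was at -0.17. Sox10, the relative of Sox8 and Sox9 found in Schwann cells and melanocytes, was at 6.91 and 6.85, a difference of -0.06 (95% interval -0.22 to 0.10). Sox14 (-0.05), Sox30 (0.05), Sox15 (0.04), Sox3 (-0.03), Sox1 (-0.01) and Sox21 (-0.0043) completed the list, and the arrays of the groups overlapped in all 9.

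The genes with the pattern nearest to Sox5 and to Sox18, the members of each set with the largest difference, were found by the root mean square difference between centred values over the 6 arrays. Candidates were first filtered by symbol to drop gene models, clones and non-coding classes, and this also dropped some ordinary genes, such as Snorc. Nearest to Sox5 of the genes kept was Matn1, which is also on the list of cartilage targets. Its distance was 0.06 on the log2 scale, where the centred values of Sox5 itself have a root mean square of 0.36. Bub1b, a mitotic checkpoint kinase, followed at 0.08, then the lipid transfer gene Stard10 at 0.09 and Csgalnact1, an enzyme of chondroitin sulphate synthesis, at 0.09. Among the members the nearest to Sox5 was Sox6, at 0.13. Nearest to Sox18 were Ms4a4d at 0.11, Kng2, a kininogen gene, at 0.13, the leptin receptor gene Lepr at 0.14, and Ehd4, an endocytic ATPase, at 0.15, with 0.48 for the centred values of Sox18 itself. The measure rests on 6 arrays in 2 groups, so genes with a like difference come close by that alone.

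**Figure D5:**
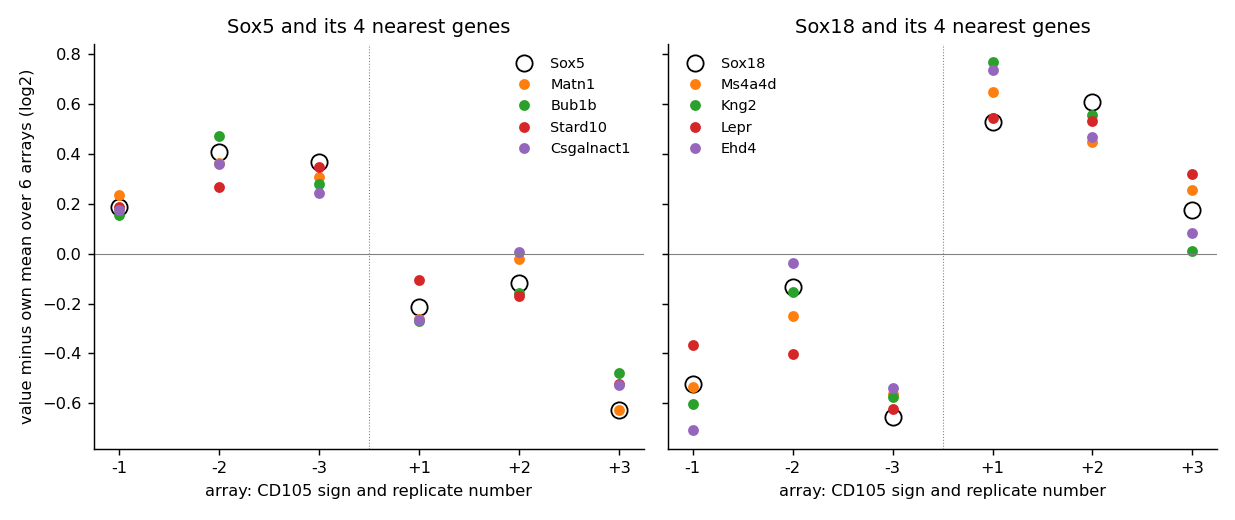
For Sox5 (left) and Sox18 (right), points give the log2 value of each array minus the gene's own mean over the 6 arrays. The arrays on the horizontal axis are labelled by CD105 sign and replicate number. Open circles are the SOX gene, and colours its 4 nearest genes after the symbol filter. The lowest value of Sox5 and of Matn1 is in CD73+CD105+ replicate 3, at -0.63 in both.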

How the data were processed

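Cells were sorted from dissociated marrow and total RNA, labelled with biotin, was read on 1 array per sample, per the labels. The deposited values are log2 expression values of 35556 probe sets that the authors made by RMA (background correction, quantile normalization, probe summary), per the submitters' processing notes. The sources used here name neither version nor genome build, and RMA compresses differences of dim probe sets. Platform annotation named 1 gene for 21789 probe sets, several for 1621 and none here for 12146. Symbols were checked by Entrez ID for 21698. The brightest probe set of a gene was kept, which gave 19938 genes.

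Groups and replicate numbers came from the sample titles. limma 3.58.1 in R 4.3.3 (lmFit, eBayes, two-sided, no block) was fitted to all genes on 6 arrays, with Benjamini-Hochberg adjustment and a threshold of 0.05, and the code was tested on simulated data. A term for replicate 1, the replicate number as a block, arrays left out in turn, array weights, another prior, other scalings, probe set rules and a filter on dim genes were alternatives. The members, lists and alternatives were chosen with earlier results of these data known. Named genes were the 10 members, the other SOX genes, from each list up to 4 that passed (or the 2 largest differences where fewer than 2 passed), and the 4 genes nearest to Sox5 and Sox18. Before the nearest were ranked, a filter on symbols dropped gene models, clones and non-coding classes, and with them some ordinary genes. Promoter letters came from RefSeq (GRCm38.p6) and no array coordinates are given.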

Additional observations from a re-analysis of the deposited data

How the results depend on the processing

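Over all genes, 270 were higher and 93 lower. Array weights gave 807 and 524, the term for replicate 1 gave 95 and 6, replicates 2 and 3 alone gave 28 and 1, and leaving out 1 array gave 80 to 240 and 6 to 53. Same-numbered arrays had correlations of their deviations over genes of -0.88, 0.01 and 0.10 for numbers 1, 2 and 3. These do not meet the rule for pairs. The balance of the replicate 1 arrays forces the first to be negative. Deviations within a group cancel, so this balance also lowers the correlations among numbers 2 and 3 and raises those of number 1 with them (0.25 to 0.45). Between CD73+CD105- replicate 2 and CD73+CD105+ replicate 3 the correlation was -0.32, and between CD73+CD105- replicate 3 and CD73+CD105+ replicate 2 it was -0.37. The check therefore cannot decide whether the numbers pair the arrays, and gives no ground for the fit without a block. With the replicate block 190 were higher and 25 lower, and of the SOX genes 1 passed, Sox18 (adjusted p = 0.0234).

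Of the 10 SOX genes 3 passed in the reported fit, 5 with array weights (Sox5, Sox6, Sox7, Sox8 and Sox18), 0 with the term for replicate 1, 0 in replicates 2 and 3 alone (7 each at an unadjusted p under 0.05 in limma) and 0 to 1 with an array left out. The direction held in every alternative for each SOX gene but Sox4, whose -0.01 became 0.0063 with centred arrays, 0.0689 with array weights, 0.14 in replicate 1 alone and -0.11 to 0.15 with an array left out. Of the 66 measured genes in the target, partner and family lists, 9 passed, 15 with array weights and 3 in replicates 2 and 3 alone. The dim filter removed Sox7 and Sox17. The fits that leave arrays out also rest on fewer arrays, and the cause of these changes was not tested.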

Other observations

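Sox6os, a transcript from the strand opposite Sox6, was looked at after its values were seen. It was at 6.64, 6.37 and 6.76 in CD73+CD105- and at 6.92, 6.91 and 7.11 in CD73+CD105+ cells, so it stood higher where Sox6 was lower, with no overlap between the groups. Its difference of 0.40 (SE 0.12, 95% interval 0.12 to 0.67) did not pass in limma (adjusted p = 0.146, or 0.296 with the term for replicate 1), and it was 0.29 in replicate 1 and 0.45 in replicates 2 and 3.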
